A study of Mus musculus with 8 samples.

Results

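The genes described here are 10 acyl-CoA synthetases of mouse liver, 4 of the Acsl family (Acsl1, Acsl3, Acsl4, Acsl5), 4 of the Acsm family (Acsm1, Acsm2, Acsm3, Acsm5) and 2 of the Acss family (Acss2, Acss3). They were chosen by name, not by a measured value, and are 10 of the 34547 genes onto which the transcripts of the deposited files could be grouped. RNA was sequenced from the livers of C57BL/6J mice injected through the tail vein at 8 weeks of age with 2.5e+11 particles of adeno-associated virus (AAV) in 150 µl. The virus carried mouse Nudt7 in 4 mice and green fluorescent protein (GFP) in 4 control mice. The mice were by then 11 to 12 weeks old: 3 to 4 weeks passed between injection and collection of the liver, which followed a 24 h fast. Virus and fast are thus common to all 8 livers. The comparison asks how raised Nudt7 changes the transcriptome of the fasted liver. No source used here states the promoter of the transgenes, the sex of the mice, a batch or a pairing of the mice.

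Acyl-CoA synthetases join a fatty acid to coenzyme A at the cost of ATP, and fatty acids enter oxidation, esterification or elongation as the resulting acyl-CoA. The families differ in the chain length they prefer: Acsl enzymes activate long-chain fatty acids, the mitochondrial Acsm enzymes activate medium-chain acids and also benzoate-like acids that are then joined to glycine, and Acss enzymes activate acetate and other short-chain acids. In liver Acsl1 is the best known of the long-chain enzymes and a target of the nuclear receptor PPARα, which is active in fasting. Nudt7 encodes a peroxisomal hydrolase that cleaves coenzyme A and acyl-CoA, the cosubstrate and the product of these enzymes.

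Acsl1 lies on chr8 from 46471037 to 46536051 on the plus strand. The annotation gives it 3 transcripts with a complete reading frame, whose models begin at different positions. Acsl1-201 begins at 46471037, Acsl1-203 begins 19929 bases further in and Acsl1-202 begins 21795 bases further in, and each of the 3 has 2097 coding bases. The model of Acsl1-202 is 2100 bases long, the reading frame with its stop codon and no untranslated ends. Its first base therefore does not mark a start of transcription. The RefSeq promoter windows of GRCm38.p6, from 250 bases before a start to 50 after it, cover the first start (chr8:46470787-46471086, plus strand) and the second (chr8:46490716-46491015, plus strand). They are shown because the shares of the transcripts that begin there, given further on, differ so widely. The window of Acsl5 (chr19:55253119-55253418, plus strand) is shown as that of the member with the next highest level, and it covers the start of Acsl5-201. Capitals mark matches to the motifs searched, on either strand, and each sequence is written 5′ to 3′ on the plus strand.
Acsl1 first window: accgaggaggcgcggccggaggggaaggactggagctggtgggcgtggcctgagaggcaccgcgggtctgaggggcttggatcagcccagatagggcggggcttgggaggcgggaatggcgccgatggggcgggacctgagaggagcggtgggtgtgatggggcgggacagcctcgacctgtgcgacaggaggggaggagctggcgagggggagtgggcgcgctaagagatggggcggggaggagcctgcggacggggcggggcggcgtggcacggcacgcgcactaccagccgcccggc
Acsl1 second window: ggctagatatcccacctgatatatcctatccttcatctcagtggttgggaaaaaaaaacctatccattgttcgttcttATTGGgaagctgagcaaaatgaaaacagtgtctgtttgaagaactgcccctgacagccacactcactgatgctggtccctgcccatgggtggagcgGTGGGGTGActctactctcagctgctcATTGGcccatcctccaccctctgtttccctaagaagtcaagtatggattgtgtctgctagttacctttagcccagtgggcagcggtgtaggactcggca
Acsl5 window: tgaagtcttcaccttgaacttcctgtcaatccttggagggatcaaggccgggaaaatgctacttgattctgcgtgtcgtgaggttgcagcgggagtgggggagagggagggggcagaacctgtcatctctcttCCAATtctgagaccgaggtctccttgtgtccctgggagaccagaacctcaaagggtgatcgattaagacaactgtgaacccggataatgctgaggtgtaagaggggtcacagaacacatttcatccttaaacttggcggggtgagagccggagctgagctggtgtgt
The first Acsl1 window had a GC content of 74.0% and no match to any of the 7 motifs. The second was lower in GC content and held, on the minus strand, an SREBP element (TCACNCCAC) at position -76 and CCAAT boxes at -172 and -49, counted from the start. The Acsl5 window had a GC content of 53.0% and a CCAAT box on the plus strand at -117. Among 32851 windows of this length in the same table, 1.24% held the SREBP element and 37.4% a CCAAT box. The other motifs were the single PPAR site AGGTCA (16.3% of windows), its direct repeat with 1 base between (0.0396%), the E-box CACGTG (7.15%), the forkhead motif GTAAACA (3.65%) and the TATA box TATAAA (13.6%), and the direct repeat contains the single site. The Acss2 window (chr2:155517793-155518092, plus strand) held a CCAAT box on the minus strand at -73 and no SREBP element. In the Acsm windows, Acsm1 had a PPAR site at -107, Acsm3 a forkhead motif at -59, Acsm5 an E-box at -132 and Acsm2 a TATA box at -28 in the first of its 2 windows. CCAAT boxes also lay in the windows of Acsm1 (-66), Acsm3 (-37 and -25), Acsm5 (-235) and Acsl3 (-15). The second Acsm2 window, within which Acsm2-207 starts, had no match. These matches describe letters only.

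The libraries held 11187806 to 23640734 estimated reads and detected 18405 to 19221 genes each. Nudt7 itself, in CPM (read counts scaled to TMM-adjusted library size), was 1301, 1599, 3569 and 1555 in the Nudt7 livers against 60.7 to 79.9 in the GFP livers. Its log2 fold change was 4.79 (SE 0.33) with an adjusted p of 0.000122 in edgeR's quasi-likelihood test with Benjamini-Hochberg adjustment. The 6 hepatocyte markers (Alb, Apoa1, Ttr, Serpina1c, Cps1, Hnf4a) summed to 58300 to 87874 CPM in the Nudt7 livers and 70046 to 89968 in the GFP livers, and none was at 0. Of the other cell lists, the 5 endothelial markers summed to 266 to 287 CPM in the Nudt7 livers and 297 to 312 in the GFP livers. The 5 cholangiocyte markers summed to 31.6 to 42.5 against 17.3 to 29.4, and the 6 periportal hepatocyte markers to 4639 to 6060 against 6357 to 7598. These 3 sums did not overlap between the groups, while the 6 macrophage markers (86.0 to 172 against 106 to 157), the 6 stellate and fibroblast markers (203 to 233 against 196 to 237) and the 6 pericentral markers (6600 to 9383 against 6882 to 7288) did. A sum follows its most abundant markers. Taken singly, the groups overlapped in CPM for every endothelial and periportal marker and for all but 1 cholangiocyte marker, where 5.75% of all genes did not overlap. Fold changes were negative for 4 endothelial markers and positive for 1, negative for 5 periportal markers and positive for 1. They were positive for 4 cholangiocyte markers and negative for 1. The groups also did not overlap for 1 hepatocyte marker, Hnf4a, at 609 to 714 CPM in the Nudt7 livers and 774 to 1066 in the GFP livers. The same held for 1 pericentral marker, Oat, at 793 to 843 CPM against 500 to 700. Fold changes were negative for 4 hepatocyte markers and positive for 2. They were positive for 5 pericentral markers and negative for 1. The 4 adipocyte markers summed to 144 to 307 and 127 to 370 CPM, with Lep at 0 in every library. No marker of any list passed the test, and the part of these shifts in the values of the synthetases was not tested. In bulk liver, fewer cells of a type and less RNA per cell cannot be told apart.

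Nudt7 replicate 3 stands apart from the other livers. Against the other Nudt7 libraries the 4560 genes with the shortest effective lengths were shifted by a median of 0.39 on the log2 scale and the 4560 with the longest by -0.33. In the other 7 libraries the same shifts lay between -0.13 and 0.12. Its 5 red blood cell markers summed to 1813 CPM, against 303 to 642 in the other 7 livers. It also had the most Nudt7, 3569 CPM against 1301 to 1599 in the other Nudt7 livers. Of the 10 synthetases, Acsl1, Acsl4, Acsm2 and Acss3 belong to the long class and the other 6 to the class between. All 4 in the long class had their lowest CPM among the Nudt7 livers in replicate 3, and 4 of the 6 in the class between (Acsl5, Acsm1, Acsm5, Acss2) had their highest there. Where leaving out this library moved the log2 fold change of a gene named in the text by more than 1.5 times or turned its sign, the value without it stands beside the result. Such a value also leaves out the liver with the most Nudt7, and the part of each trait was not tested.

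Levels are compared between genes in TPM, Salmon's transcript abundance, which divides by transcript length and adds up to the same total in every library. Among the 10 members, the Acsl family held most of the summed TPM. Its 4 members summed to 1254 ± 246.5 TPM (SD, n = 4) in the Nudt7 livers and 1012 ± 36.2 in the GFP livers, which was 85.4% ± 1.88 and 81.9% ± 1.51 of the summed TPM of all 10 genes. The 4 Acsm genes summed to 145 ± 12.6 and 160 ± 25.3 TPM, or 10.1% and 12.9%. The 2 Acss genes summed to 64.6 ± 10.4 and 65.0 ± 9.03 TPM, or 4.43% and 5.25%. A single gene carried most of this: Acsl1 made up 62.7% to 74.0% of the summed TPM of the 10 members over the 8 livers, with a mean of 69.1% ± 4.16 in the Nudt7 livers and 65.3% ± 1.91 in the GFP livers.

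Over the 8 livers the mean levels ran, in TPM, from Acsl1 (914) through Acsl5 (193), Acsm3 (62.5), Acsm1 (60.0), Acss3 (35.4), Acsm5 (29.7), Acss2 (29.4), Acsl4 (20.2) and Acsl3 (6.75) to Acsm2 (0.427). Neighbours in that order did not overlap in range at 4 of the 9 steps: Acsl1 over Acsl5 (4.74 times), Acsl5 over Acsm3 (3.08 times), Acsm1 over Acss3 (1.70 times) and Acsl3 over Acsm2 (15.8 times). Acsm3 was above Acsm1 in 6 of 8 libraries, Acss3 above Acsm5 in 6 and Acsm5 above Acss2 in 5, so these neighbours did not differ beyond their spread. Acss2 over Acsl4 and Acsl4 over Acsl3 kept their order in all 8 libraries although their ranges over the livers overlapped.

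**Figure D1:**
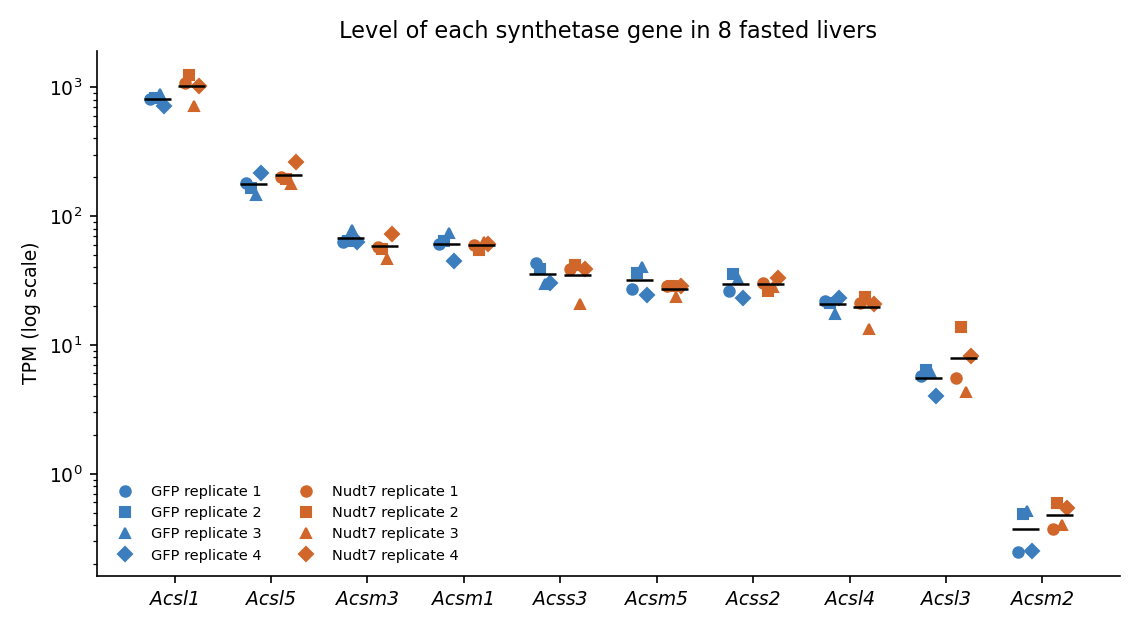
Level of each of the 10 synthetases in TPM on a log axis, 1 point per liver, with GFP livers in blue, Nudt7 livers in orange and a bar at the mean of each group. Acsl1 lies above every other member in all 8 livers, and Acsm2 stays under 1 TPM.

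In the comparison of Nudt7 with GFP livers, none of the 10 synthetases passed an adjusted p of 0.05 in edgeR's test over 13678 genes, of which 0.117% passed. At an unadjusted p under 0.05 there was 1 of 10, Acsl1, where 8.28% of all genes tested stood. DESeq2 called 1 of the 10, again Acsl1, against 1.13% of all genes, and limma-voom with sample weights also called Acsl1 alone, against 0.731%. The fold change was positive for 8 of 10 members and for 49.8% of all genes tested, and the members' median was 0.16 on the log2 scale against -0.00 for all genes. The groups did not overlap in CPM for 1 member, Acsl1, and for 5.75% of all genes. The Nudt7 livers were wholly above, as for Acsl1, in 2.74% of all genes.

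Acsl1, the main long-chain synthetase of liver, was at 2896, 3325, 2564 and 2810 CPM in the Nudt7 livers 1 to 4 and at 2109.5, 2073, 2172 and 2043 CPM in the GFP livers 1 to 4. Every Nudt7 liver was above every GFP liver. The fitted log2 fold change was 0.47 (SE 0.14, 95% interval 0.17 to 0.77), which is 1.38-fold with an interval of 1.12 to 1.70, and edgeR gave an unadjusted p of 0.00560 and an adjusted p of 0.351. The adjusted p was 0.00277 in DESeq2 and 0.0467 in limma-voom with sample weights. Without Nudt7 replicate 3 the log2 fold change was 0.53 with an edgeR adjusted p of 0.107. The same gene in TPM was at 1085, 1251, 710 and 1026 in the Nudt7 livers and 816, 824, 877 and 720 in the GFP livers, with Nudt7 replicate 3 now the lowest of all 8. On the TPM scale the groups therefore overlapped, and limma on log2(TPM + 1) gave a log2 fold change of 0.30 with an adjusted p of 0.680. In Nudt7 replicate 3 the median gene was also shifted by -0.28 on the log2 TPM scale against the median library, while the other 7 libraries lay between -0.05 and 0.07.

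**Figure D2:**
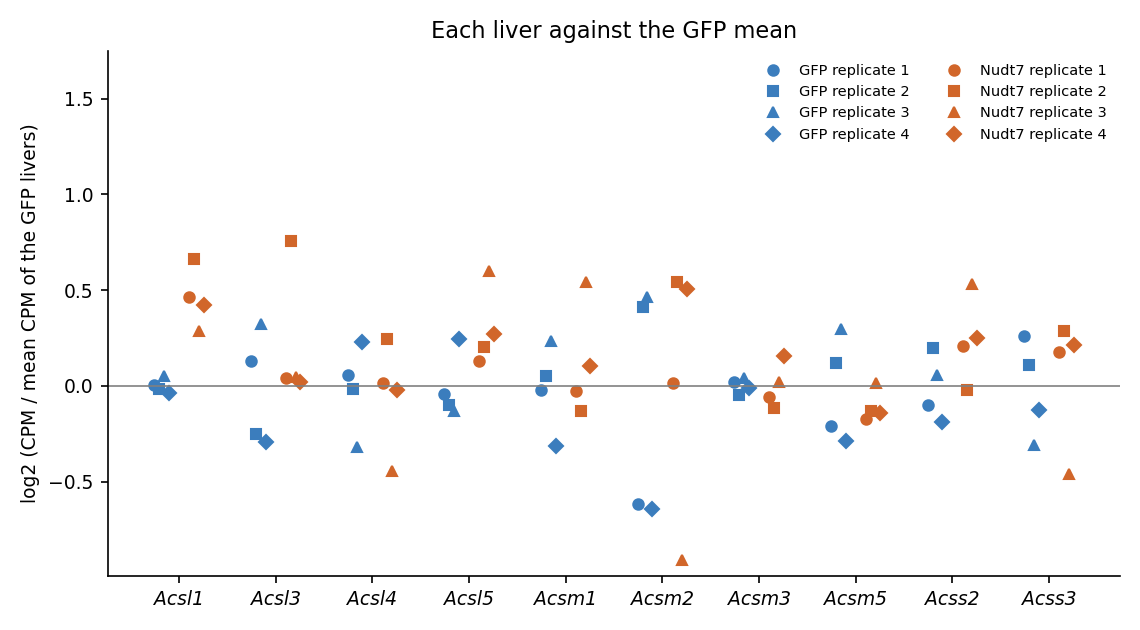
Log2 ratio of the CPM of each synthetase in a liver to its mean CPM over the GFP livers, with 1 point per liver, GFP in blue, Nudt7 in orange and a marker shape for each replicate. The Nudt7 points of Acsl1 all lie above its GFP points, and for the other 9 members the groups overlap.

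Acsl5, a long-chain synthetase best known from intestine and liver, was at 265.8, 280.3, 368 and 293 CPM in the Nudt7 livers and 236, 226, 222 and 288 in the GFP livers. GFP replicate 4 was above Nudt7 replicates 1 and 2, so the groups overlapped. Its log2 fold change was 0.31 (SE 0.14, 95% interval -0.00 to 0.63), with an edgeR adjusted p of 0.600. Without Nudt7 replicate 3, its highest library, the log2 fold change was 0.21. Acsl3, which is found on lipid droplets and the endoplasmic reticulum, was at 9.92, 16.2, 9.96 and 9.77 CPM in the Nudt7 livers and 10.5, 8.11, 12.0 and 7.87 in the GFP livers. Nudt7 replicate 2 was the only liver above the GFP range. The log2 fold change of Acsl3 was 0.25 (SE 0.21) with an edgeR adjusted p of 0.736, and 0.04 without that library. Acsl4, which prefers arachidonic acid, ranged from 42.8 to 69.1 CPM in the Nudt7 livers and from 46.8 to 68.3 in the GFP livers, ranges that lie almost over each other. Its log2 fold change was -0.03 (SE 0.16, 95% interval -0.39 to 0.32) with an edgeR adjusted p of 0.967, and 0.09 without Nudt7 replicate 3.

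The 4 Acsm genes lie in 1 stretch of chr7, in the order Acsm5, Acsm2, Acsm1 and Acsm3, all on the plus strand. The stretch runs from 119519463 to 119787513 and spans 268051 bases. The gaps between these members are 8788, 6335 and 98407 bases, and other genes within the gaps were not looked for. Their levels were far apart all the same, with mean TPM of 29.7, 0.427, 60.0 and 62.5 in that order. No sequence word of 31 bases in Acsm1 or Acsm5 occurs, in the sense direction, in another gene among the named transcripts of the deposited files. The share of words that do occur in another gene is 0.947% for Acsm2 and 0.363% for Acsm3. Among all 10 members the highest share is the 4.22% of Acsl3, whose 185 such words occur in Utp14b.

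Acsm3 had the fold change nearest to 0 of the 10 genes. It was at 97.8, 94.0, 103 and 113 CPM in the Nudt7 livers and 103, 98.4, 105 and 101 in the GFP livers, and the fitted log2 fold change was 0.00 (SE 0.11, 95% interval -0.24 to 0.25) with an edgeR adjusted p of 0.993, and 0.01 without Nudt7 replicate 3. Its fitted variation between livers was at the 8.47th percentile of all genes tested. Acsm1, which activates medium-chain acids in mitochondria, ranged from 87.0 to 139 CPM in the Nudt7 livers and from 76.8 to 112 in the GFP livers, with the highest value in Nudt7 replicate 3. The fitted value was 0.15 on the log2 scale (SE 0.17) with an edgeR adjusted p of 0.815, and -0.00 without that library. Acsm5 ranged from 52.8 to 60.0 CPM in the Nudt7 livers and from 48.7 to 73.1 in the GFP livers, so all Nudt7 livers lay inside the GFP range. The log2 fold change of Acsm5 was -0.10 (SE 0.14) with an edgeR adjusted p of 0.848. Acsm2, best known from the kidney proximal tubule, rested on 11 to 37 reads per library and ranged from 0.906 to 2.47 CPM and from 1.09 to 2.34 CPM. At this depth its log2 fold change of 0.18 had an SE of 0.37 and a 95% interval of -0.64 to 0.997, and it was 0.42 without Nudt7 replicate 3, its lowest library. The 4 kidney proximal tubule markers summed to 0.823 to 1.41 CPM in the Nudt7 livers and 0.913 to 1.59 in the GFP livers, nearly all of it Lrp2, and Slc34a1 was at 0 in all but 1 library.

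Acss2 makes acetyl-CoA from acetate in cytosol and nucleus and is a target of the SREBP factors of lipid synthesis. It was at 56.8, 48.5, 71.1 and 58.5 CPM in the Nudt7 livers and 46.0, 56.5, 51.1 and 43.2 in the GFP livers. Of the 4 Nudt7 livers, 3 were above the highest GFP liver, and Nudt7 replicate 2 was inside the GFP range. The log2 fold change was 0.26 (SE 0.14, 95% interval -0.05 to 0.56) with an edgeR adjusted p of 0.664. It was 0.16 without Nudt7 replicate 3 and 0.02 on the log2(TPM + 1) scale. Acss3, a mitochondrial short-chain synthetase, was at 91.6, 98.6, 58.9 and 94.0 CPM in the Nudt7 livers and 96.8, 87.4, 65.3 and 74.2 in the GFP livers. Its lowest value was again in Nudt7 replicate 3, and the log2 fold change of 0.08 (SE 0.18) had an edgeR adjusted p of 0.905. Without that library it was 0.24, with an adjusted p of 0.676.

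**Figure D3:**
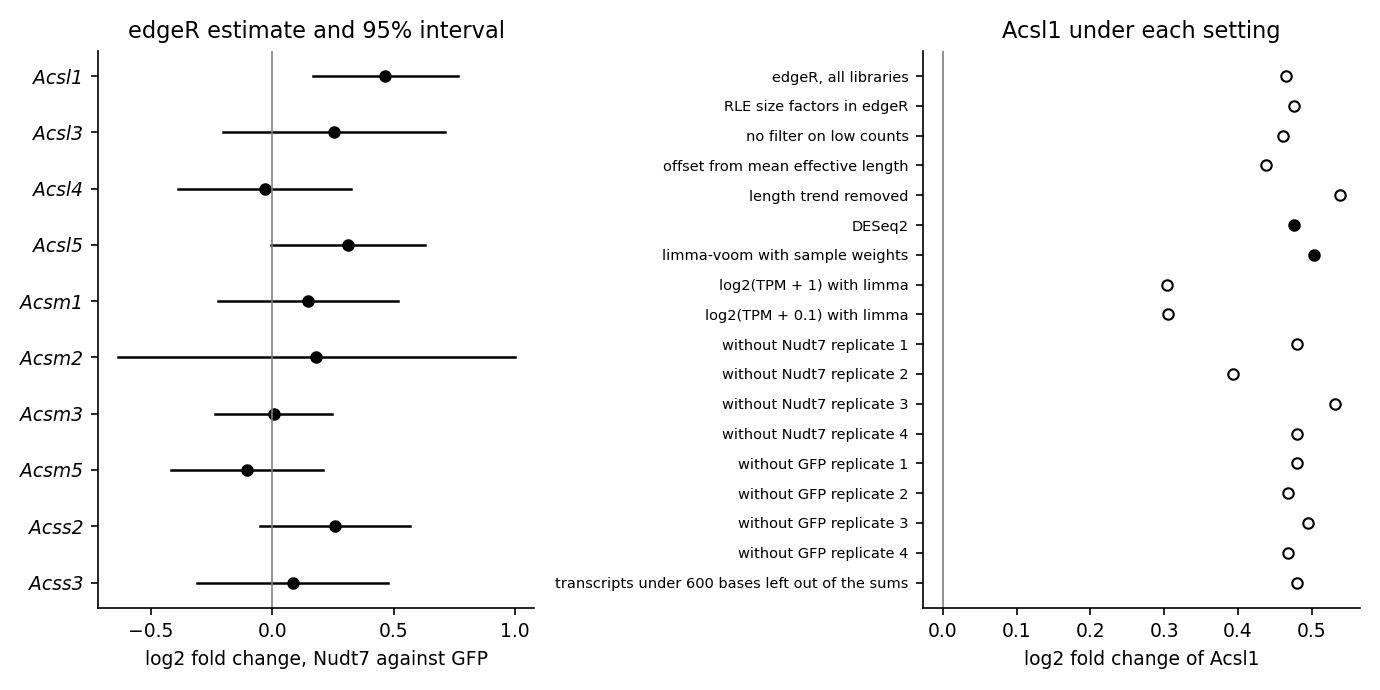
Left, the log2 fold change of Nudt7 against GFP livers that edgeR fitted for each synthetase (points), with 95% intervals (lines), of which the one of Acsl1 (0.17 to 0.77) alone lies wholly above 0. Right, the log2 fold change of Acsl1 under each alternative, from 0.30 to 0.54, filled where it passed the adjusted threshold (DESeq2 and the weighted limma-voom fit) and open elsewhere.

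The members have 70 transcripts in the files, and 36 were abundant enough to test. None passed an adjusted p of 0.05 in edgeR's test over 31071 transcripts, of which 0.00644% passed, and 3 had an unadjusted p under 0.05, where 4.51% of all transcripts stood. The share of each transcript within its gene was tested for the 8 members with at least 2 tested transcripts. None of the 8 passed, against 0.139% of the 7196 genes in that test, and the smallest adjusted p among them was 0.999995 in edgeR.

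Acsl1-201, the transcript that starts at the first window printed above, carried 91.5% ± 1.88 of the TPM of Acsl1 in the Nudt7 livers and 88.9% ± 2.39 in the GFP livers. Its log2 fold change was 0.51 (SE 0.12), with an edgeR unadjusted p of 0.00204 and an adjusted p of 0.599, the smallest among the transcripts of the members. Among the 3 transcripts with a complete reading frame, Acsl1-201 held 98.0% in both groups, with a range of 97.2% to 98.8% over the livers. Acsl1-202 held 1.57% ± 0.504 and 1.43% ± 0.375. Acsl1-203, which starts at the second window with the SREBP element, held 0.433% ± 0.178 and 0.584% ± 0.133. In these fasted livers the model that begins at the GC-rich first start thus held nearly all TPM of these 3 models in both groups. The models also end at different positions, Acsl1-201 at 46536051, Acsl1-203 at 46535581 and Acsl1-202 at 46534480. The shares therefore compare whole models, and the use of each start by itself was not tested.

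**Figure D4:**
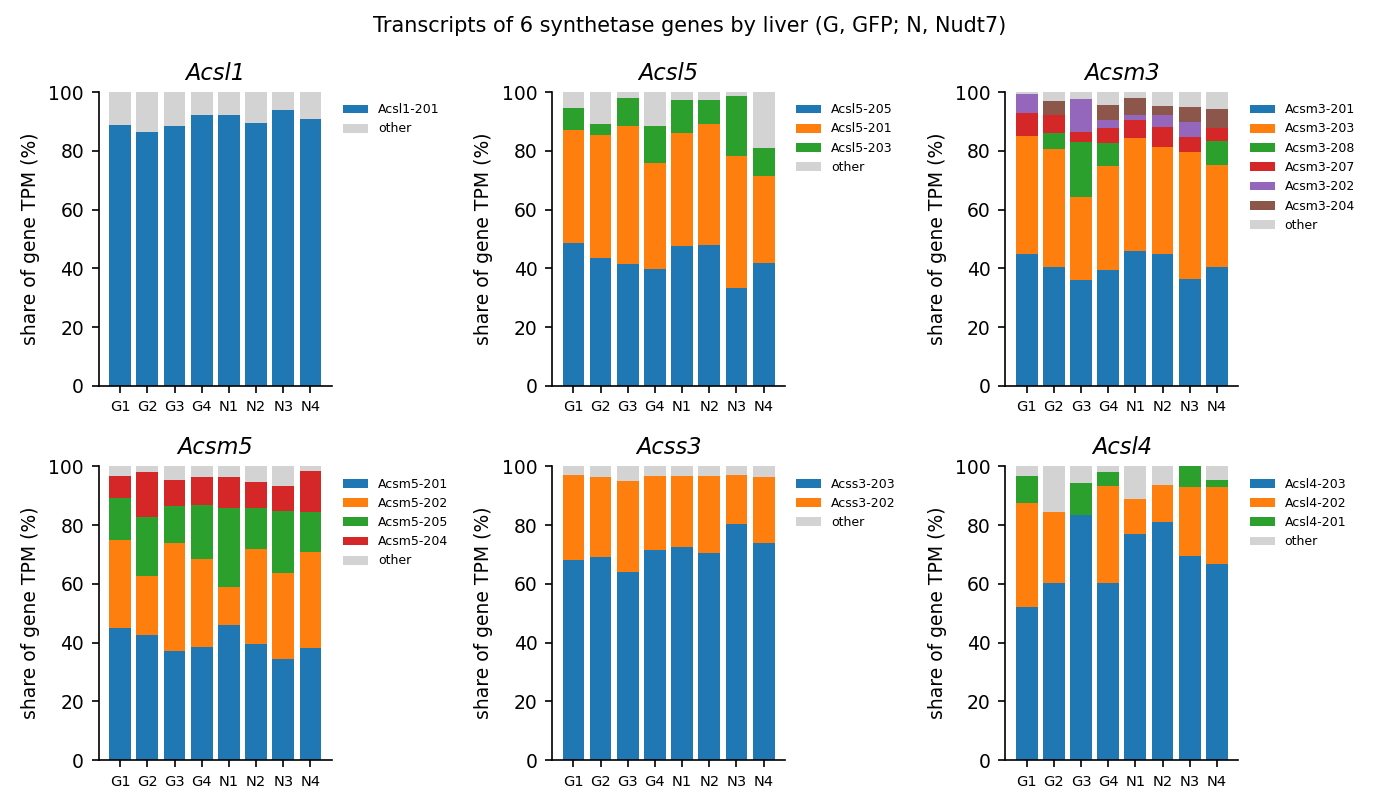
Share of the TPM of 6 synthetase genes held by each named transcript, in percent, as stacked bars with 1 bar per liver (G, GFP; N, Nudt7) and the remaining transcripts in grey. Acsl1 rests on Acsl1-201 in every liver (86.4% to 93.7%), whereas Acsl5, Acsm3 and Acsm5 divide their TPM among several.

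Acsl5 was divided mainly between a long and a short transcript model. Acsl5-201, of 4243 bases, was at 78.9 ± 1.62 TPM in the Nudt7 livers and 71.0 ± 4.52 in the GFP livers, which was 38.6% and 40.8% of the gene. Acsl5-205, a model of 520 bases that lacks a complete reading frame and starts 1431 bases upstream, held 42.6% ± 6.85 and 43.4% ± 3.95 of the TPM but only 5.29% to 9.96% of the reads. Of its words of 31 bases, 28.2% do not occur in Acsl5-201, so most of its length is shared with the long model. The level of Acsl5 in TPM therefore depends on how reads were divided between the models. Acsl5-201 alone would still lie above the mean of Acsm3. Its range over the livers (68.3 to 80.6 TPM) would however overlap that of Acsm3 (46.2 to 77.9 TPM). Acsl5-203, a model of 455 bases, held 12.2% ± 5.59 and 8.33% ± 3.51 of the TPM. With transcript models under 600 bases left out of the gene sums, an alternative chosen after seeing the data, the log2 fold change of Acsl5 was 0.31 as before.

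The other genes differed in how many transcript models their TPM was divided among. Acsm1-201 held 100% and 99.4% of Acsm1, while Acsm3-201 (41.9% and 40.3%) and Acsm3-203 (38.2% and 36.0%) shared most of Acsm3. Acsm5 was spread over Acsm5-201 (39.5% and 40.8%), Acsm5-202, annotated for nonsense-mediated decay (26.8% and 29.1%), Acsm5-205 (18.8% and 16.4%) and Acsm5-204 (10.5% and 10.2%). Acss2-201 held 76.4% ± 6.00 and 71.7% ± 4.85. In Acss3 the coding Acss3-203 held 74.3% ± 4.25 in the Nudt7 livers and 68.1% ± 3.09 in the GFP livers, and the non-coding Acss3-202 held 22.4% ± 4.07 and 28.2% ± 2.38. Acsl4-203 held 73.6% ± 6.68 and 63.9% ± 13.4, and Acsl4-202 held 18.5% ± 7.35 and 23.2% ± 16.2. Acsl3-205 held 53.5% ± 20.7 and 70.2% ± 9.91, a spread that comes with 54.3 to 149 reads per library. Acsm2-207 held 75.3% ± 30.2 and 94.7% ± 10.6 of a gene near the limit of detection.

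The remaining acyl-CoA synthetases of the mouse make a list of 15 genes, of which 8 were abundant enough to test. None passed in edgeR, and 2 had an unadjusted p under 0.05 (8.28% of all genes). Fold changes were positive for 5 of 8 (49.8% of all genes), and the median was 0.14. The groups did not overlap in CPM for 2 of the 8 (5.75% of all genes). Acsf2, a mitochondrial medium-chain synthetase, was at 279, 269, 256 and 286 CPM in the Nudt7 livers and 202, 187, 218 and 190.5 in the GFP livers. Every Nudt7 liver was above every GFP liver. Its log2 fold change of 0.45 (SE 0.11) was of about the size seen for Acsl1, with an edgeR adjusted p of 0.221. Slc27a1, a fatty acid transport protein with synthetase activity, was at 54.0, 108, 96.4 and 101 CPM against 54.3, 53.2, 44.3 and 55.9, with Nudt7 replicate 1 inside the GFP range. For Slc27a1 the log2 fold change was 0.79 (SE 0.20) with an edgeR adjusted p of 0.209. Acsf3, which activates malonate, had 0.28 (adjusted p 0.600). Aasdh was at 10.0 to 14.5 CPM in the Nudt7 livers, every one below the 15.2 to 16.0 of the GFP livers. Its fitted value was -0.28 (adjusted p 0.626), and -0.17 without Nudt7 replicate 3. DESeq2, which called 1.13% of all genes, called 2 of the 8, Acsf2 and Slc27a1. The weighted limma-voom fit, which called 0.731% of all genes, called Acsf2. Named after their levels were seen, Slc27a2 (1244 to 1739 TPM) and Slc27a5 (321 to 432 TPM), transport proteins that activate very long-chain fatty acids and bile acids, were the ones at or above the level of Acsl5. The mean of Slc27a2 over the 8 livers, 1581 TPM, was above that of Acsl1. The 7 untested genes (Acsl6, Acsm4, Acss1, Acsbg1, Acsbg2, Slc27a3, Slc27a6) had at most 12 reads in any library.

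Acsl1 and Acss2 belong to the targets of PPARα and of SREBP, and the lists of those factors show the setting in which they stand. Of 22 genes in the PPARα list, 1 rose and none fell in edgeR's test, where 0.0439% of all genes rose and 0.0731% fell. In the same list 6 had an edgeR unadjusted p under 0.05 (8.28% of all genes) and 16 were positive (49.8% of all genes). The median log2 fold change was 0.20. The 1 that rose was Cd36, a fatty acid translocase, at 79.5, 46.5, 80.5 and 68.6 CPM against 28.7, 34.5, 25.6 and 33.3. The log2 fold change of Cd36 was 1.17 (SE 0.18) with an edgeR adjusted p of 0.0423. The call was lost when any 1 library other than Nudt7 replicate 2 was left out, with adjusted p values of 0.0578 to 0.161. Of 21 genes in the SREBP list none passed in edgeR (0.117% of all genes). An unadjusted p under 0.05 was reached by 6 (8.28% of all genes), 14 were positive (49.8%) and the median was 0.16. Scd1, a fatty acid desaturase, had a log2 fold change of 1.14 (adjusted p 0.113), Srebf1 0.75 (0.109) and Hmgcs1 0.35 (0.525) in edgeR.

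Of 17 genes whose products bind, use or hydrolyse acyl-CoA, none passed in edgeR (0.117% of all genes). An unadjusted p under 0.05 was reached by 2 (8.28% of all genes), and 14 were positive (49.8%). The median was 0.16, and the groups did not overlap in CPM for 2 (5.75% of all genes). Crot, the peroxisomal carnitine acyltransferase, was at 591 to 883 CPM in the Nudt7 livers and 430 to 532 in the GFP livers, without overlap, and had a log2 fold change of 0.56 with an edgeR adjusted p of 0.277. Agpat2, which esterifies lysophosphatidic acid with acyl-CoA, was at 171 to 220.2 CPM against 119 to 140 and had 0.53 with an edgeR adjusted p of 0.179. Dbi, the acyl-CoA binding protein, was at 238, 232, 695 and 257 CPM in the Nudt7 livers and 218, 208, 184 and 260.3 in the GFP livers. Only Nudt7 replicate 3 was above the GFP range, and the log2 fold change of 0.71 (adjusted p 0.600) was 0.16 without it. Acot2, a mitochondrial thioesterase, had 0.44 (adjusted p 0.646). The medians of all 4 lists lay between 0.14 and 0.20 on the log2 scale, close to the 0.16 of the 10 synthetases.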

How the data were processed

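RNA from 4 Nudt7 and 4 GFP livers was sequenced from stranded mRNA libraries, per the labels' protocols. The deposited tables hold, per transcript, the estimated count, the TPM and the effective length that Salmon writes, per the file headers. The submitters' processing notes also name FastQC, DESeq2 and GRCm38, and no source used here states the version of Salmon or its index. GENCODE M21 named 107987 of 109282 transcripts, and the unnamed ones held 0.552% to 1.06% of the reads. Estimated counts and TPM deposited by the authors were summed per gene, and the counts were rounded.

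The test was edgeR 4.0.16 (quasi-likelihood with TMM scaling and filterByExpr) on all 8 libraries, two-sided, with Benjamini-Hochberg adjustment over the 13678 genes or 31071 transcripts tested and a threshold of 0.05. Transcript shares were tested with diffSpliceDGE. The p-values set the difference between the groups against the spread between livers within a group, which edgeR estimates partly from the other genes or transcripts. For transcripts the error of dividing reads among them had no estimate of its own. Intervals cover 95%. DESeq2 1.42.0 and limma 3.58.1 were alternatives, the latter also on log2(TPM + pseudocount) with pseudocounts of 1 and 0.1. The methods were tested on simulated data. Not passing does not show that a gene is unchanged, and the 95% intervals give the precision of each fold change. Promoters came from RefSeq GRCm38.p6, which had windows for 9 of the 10 members.

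The members and lists were chosen with earlier results of these data known. Named in the text were all members, their transcripts with at least 5% of the gene's TPM in either group, and in each list the genes called, or otherwise the 4 with the smallest p. Of those transcripts, the ones with few reads are described only where their gene's split rests on them. One gene that this rule names is not reported here.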

Additional observations from a re-analysis of the deposited data

Results flagged for a closer look

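In 40 groups of 4 values (10 genes, 2 groups of livers, CPM and TPM), 4 had a highest or lowest liver whose gap to the next took up more of the group's range than Dixon's 95% critical value allows. Chance flags about 1 in 20 such groups. Acsl3 was at 16.2 CPM in Nudt7 replicate 2, with the other Nudt7 livers between 9.77 and 9.96. Acsm3 was at 77.9 TPM in GFP replicate 3, with the other GFP livers between 62.9 and 63.9. In Nudt7 replicate 3, the library that stands apart in transcript length, Acsm5 was at 23.7 TPM with the others between 28.5 and 28.6, and Acss3 was at 20.9 TPM with the others between 38.8 and 41.8.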

How the results depend on the processing

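No paired analysis was possible because the labels number no replicates: the numbers 1 to 4 used here follow accession order within each group and pair nothing. Of the 10 members, DESeq2 called 1 and limma-voom with sample weights 1, in each case Acsl1, and the other alternatives called 0, including those without 1 library. Over 17 alternatives the log2 fold change of Acsl1 stayed positive, between 0.30 and 0.54, and that of Acsl5 between 0.21 and 0.42. Of the other synthetases DESeq2 called 2 and limma-voom 1. Of the SREBP list, no filter on low counts called 1, removing the length trend 1, DESeq2 2 and limma-voom 2. Of the PPARα list an offset from effective length called 0, removing the length trend 2, DESeq2 2, limma-voom 3, and leaving out 1 library 0 to 1. Of the acyl-CoA users DESeq2 called 2 and limma-voom 1. Over all genes tested, the share called was 1.13% in DESeq2, 0.731% in limma-voom, 0.119% with no filter, 0.278% with the length trend removed and 0.0731% with the offset, against 0.117% in the edgeR test reported. The causes of these differences between tools were not tested.

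Signs turned for members near 0 on the log2 scale. Acsl4 had 0.0049 with an offset from effective length, 0.037 with the length trend removed and 0.10 with limma-voom. Acsm1 had -0.0412 with limma-voom, and -0.0088 and -0.0086 on the scales log2(TPM + 1) and log2(TPM + 0.1). Acsm3 had -0.0876 with the offset, -0.0103 with limma-voom and -0.22 on both TPM scales, and Acss3 had -0.0472 and -0.0496 on them. Acsm3-201 had -0.0035 with the length trend removed. Without 1 library the ranges were -0.14 to 0.0926 for Acsl4, -0.0015 to 0.25 for Acsm1, -0.0495 to 0.0426 for Acsm3, -0.17 to 0.0242 for Acsm5, -0.14 to 0.38 for Acsl3-205, -0.0734 to 0.35 for Acsm2-207 and -0.0678 to 0.0517 for Acsm3-201. With log2(TPM + 0.1) the median of all genes was -0.12, and relative to it Acsl1 was at 0.43, Acsl5 at 0.36 and Acsm3 at -0.10. Relative to the same median Acsm1 was at 0.11 and Acss3 at 0.07, so their negative values on this scale lay above it. Depth limits Acsm2, with 11 to 37 reads per library. The split between transcripts that share most of their sequence depends on how reads were divided among them.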
